A study of Rattus norvegicus with 8 samples.

Results

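The 10 genes described here are *Ass1*, *Aadat*, *Inmt*, *Folr1*, *Nap1l5*, *Nfe2*, *Parm1*, *Ttyh2*, *Defb24* and *Fam110c*. They were chosen, out of 13914 genes with a symbol, because their signals were far above EGFP in GCs given FSH or PKA-CQR on these same arrays, and because little is written about them in the ovary. The choice had no numerical threshold, and the rises that chose the genes are given below as a description, without a test. GCs, the granulosa cells that surround the oocyte and support it, came from the ovaries of 24 day-old Sprague-Dawley rats and were kept in primary culture. PKA-CQR GCs were transduced for 24 hr. with a lentivirus that carries a mutant catalytic subunit of protein kinase A, which stays active without cAMP (n = 3 arrays). FSH GCs were transduced with a virus that makes the green fluorescent protein EGFP and were given FSH at 100 ng/ml for 24 hr. (n = 3 arrays). EGFP GCs received the EGFP lentivirus without FSH (n = 2 arrays). Testosterone was present in all of the cultures, and per the methods the GCs were collected as 3 separate groups.

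FSH binds a receptor on GCs that raises cAMP, and cAMP frees the catalytic subunit of PKA, which phosphorylates the transcription factor CREB and other proteins. PKA-CQR enters this route at the kinase and passes by the receptor. GCs treated in this way take up cholesterol and make steroids, and the genes of those processes are the usual readouts of FSH action. The 10 genes belong to other processes. *Ass1*, *Aadat*, *Inmt* and *Folr1* act in amino acid, methyl group and folate metabolism, *Nap1l5* and *Nfe2* in chromatin and transcription, *Parm1*, *Ttyh2* and *Defb24* at the cell surface or outside the cell, and *Fam110c* at the cytoskeleton.

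The signals are log2 values made by RMA, so that a difference of 1 is a 2-fold change. The 8 arrays had median log2 signals of 8.37 to 8.44, and within a group their correlations were 0.993 to 0.997. Of 14 GC markers measured, 7 rose and 1 fell with PKA-CQR and 9 rose and 1 fell with FSH. Over all genes, 6.48% rose and 6.02% fell with PKA-CQR, and 13.4% rose and 12.1% fell with FSH. Several of these markers, such as *Cyp19a1* and *Inha*, are known to respond to FSH, so the counts do not speak of the identity of the cells. *Foxl2*, which defines the lineage, averaged 13.3 in PKA-CQR, 13.0 in FSH and 13.1 in EGFP arrays. *Prkaca*, the gene of the transduced subunit, differed from EGFP by 0.11 with PKA-CQR (SE 0.23, limma adjusted p = 0.837), but the mutant transcript may lack the sequence that the probes bind. In cultures measured whole, a higher share of cells that express a gene and more RNA per cell cannot be told apart.

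CREB, a direct substrate of PKA, binds a short element in the promoters of cAMP-responsive genes. RefSeq windows from 250 bases before to 50 bases after the start of transcription (build GRCr8) were at hand for 8 of the 10 genes, all except *Nfe2* and *Folr1*. On either strand, the full cAMP response element TGACGTCA was in 0 of the 8 windows and in 1.83% of the 33469 rat promoters. Its first part TGACG, which every full element also contains, was in 1 of 8 against 21.2%, and AAGGTCA, the element of the GC nuclear receptors *Nr5a1* and *Nr5a2*, was in 1 of 8 against 4.61%. The promoters of *Nap1l5* and *Defb24* carry these matches, and the bases from -150 to -1 are printed for that reason. They lie at chr4:89354705-89354854 and chr3:161512984-161513133, both on the minus strand. The sequences are written 5′ to 3′ along the gene, and capitals mark the motif, which runs on the opposite strand and is therefore seen as its reverse complement.
*Nap1l5*: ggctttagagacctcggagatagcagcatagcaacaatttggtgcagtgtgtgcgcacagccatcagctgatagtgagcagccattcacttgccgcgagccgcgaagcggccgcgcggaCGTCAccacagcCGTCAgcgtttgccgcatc
*Defb24*: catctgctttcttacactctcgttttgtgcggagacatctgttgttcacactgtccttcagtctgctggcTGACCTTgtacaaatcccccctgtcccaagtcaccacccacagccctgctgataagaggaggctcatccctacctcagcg
The matches in *Nap1l5* begin at -31 and -19, and that in *Defb24* at -80. A match is a run of letters and was not tested as a binding site, and its absence elsewhere speaks only of these windows.

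All 10 genes lay above EGFP on every PKA-CQR array and on every FSH array. Over all genes, 22.9% had PKA-CQR arrays that all lay above the EGFP arrays and 29.9% had FSH arrays that all did. The 10 were selected for these rises, so nothing follows from the counts. With PKA-CQR the signals were 1.54-fold to 31.1-fold above EGFP (median 4.06-fold, with 8 genes at 2-fold or more), and with FSH they were 3.40-fold to 38.6-fold above EGFP (median 9.99-fold, with all 10 at 2-fold or more). In the direct comparison, 1 gene had PKA-CQR arrays that all lay above the FSH arrays (10.7% of all genes did), 7 had PKA-CQR arrays that all lay below (12.1% of all genes), and in 2 the arrays overlapped.

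**Figure D1:**
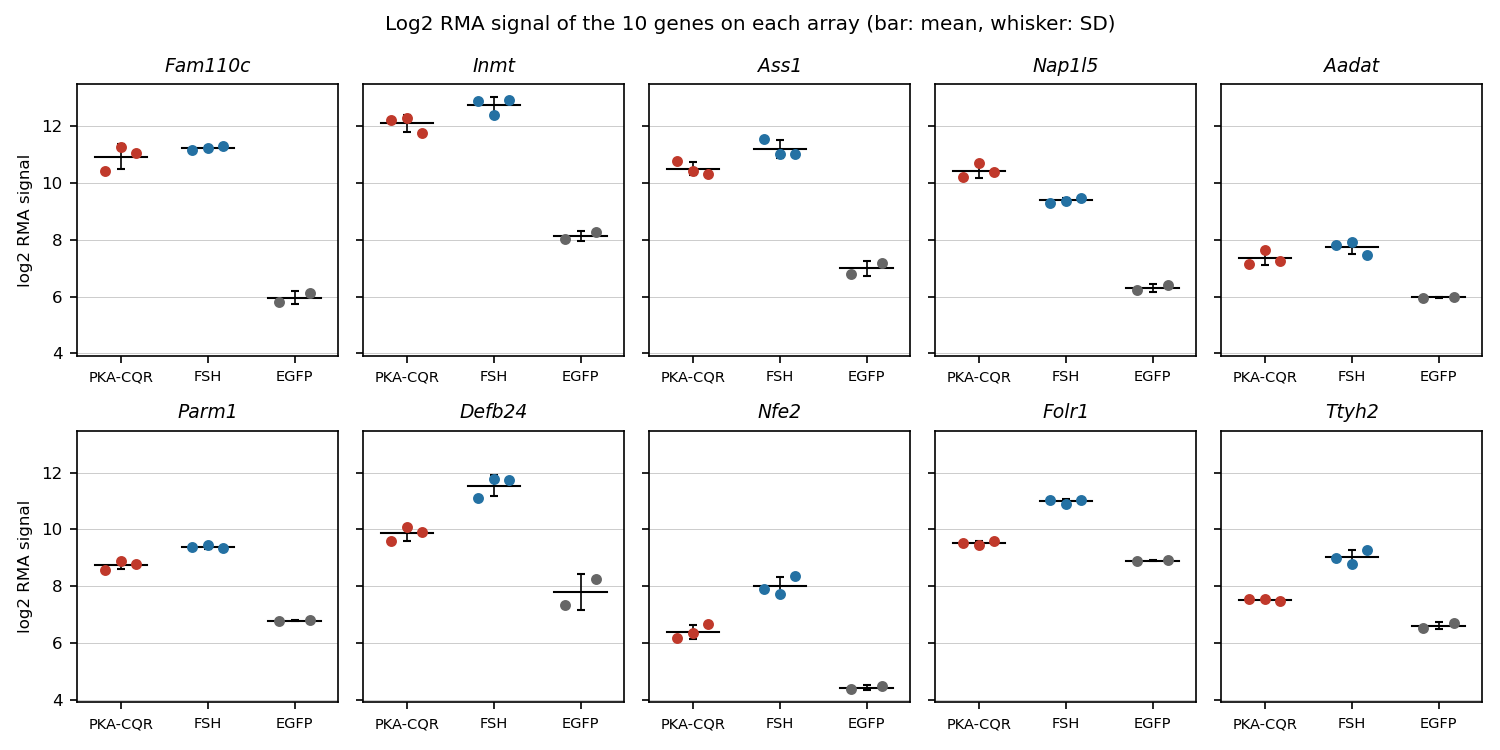
Log2 RMA signal (vertical axis) of the 10 genes on each PKA-CQR (red), FSH (blue) and EGFP (grey) array, with the group mean (bar) and SD (whisker, n = 3, 3 and 2). In each panel the 2 EGFP arrays lie lowest, and *Nap1l5* is the 1 gene with all PKA-CQR arrays above the FSH arrays.

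*Ass1* (probe set 1370964_at) encodes argininosuccinate synthase, which joins citrulline and aspartate on the way to arginine. Its log2 signals were 10.76, 10.41 and 10.32 on the PKA-CQR arrays, 11.54, 11.00 and 11.03 on the FSH arrays and 6.81 and 7.18 on the EGFP arrays. The PKA-CQR arrays all lay below the FSH arrays, and both groups were more than 3 log2 units above EGFP. The difference over EGFP was 3.50 with PKA-CQR (SE 0.20, 11.3-fold) and 4.20 with FSH (18.4-fold), and PKA-CQR over FSH it was -0.69 (SE 0.18). Of all genes, 15 had a larger rise with PKA-CQR and 7 with FSH. RefSeq lists the pseudogenes *Ass1-ps1* and *Ass1-ps2*, and whether a share of this signal comes from a near copy was not tested.

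*Aadat* (probe set 1387223_at), the aminotransferase that acts on kynurenine and on the lysine product aminoadipate, had signals of 7.16, 7.62 and 7.24 with PKA-CQR, 7.81, 7.94 and 7.46 with FSH, and 5.96 and 5.98 with EGFP. The PKA-CQR and FSH arrays overlapped. PKA-CQR was 1.37 above EGFP (SE 0.17, 2.59-fold) and FSH 1.77 above EGFP (3.40-fold), and the difference PKA-CQR over FSH was -0.39 (SE 0.15). This was the smallest of the 10 rises with FSH, and 123 genes on the array had a larger one.

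*Inmt* (probe set 1373975_at) encodes a methyltransferase that passes a methyl group from S-adenosylmethionine to tryptamine and other small amines. Its signals were 12.23, 12.30 and 11.75 in PKA-CQR GCs, 12.89, 12.40 and 12.92 in FSH GCs, and 8.01 and 8.27 in EGFP GCs. The highest PKA-CQR array lay just below the lowest FSH array. Over EGFP the difference was 3.95 with PKA-CQR (SE 0.20, 15.5-fold) and 4.60 with FSH (24.2-fold), and PKA-CQR over FSH it was -0.64 (SE 0.18). The rise with FSH was exceeded by 6 genes and that with PKA-CQR by 10.

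*Folr1* (probe set 1387889_at), a folate receptor that is held in the membrane by a lipid anchor and carries folate into the cell, gave 9.52, 9.46 and 9.58 with PKA-CQR, 11.03, 10.89 and 11.03 with FSH, and 8.89 and 8.91 with EGFP. The 3 groups were separate and each was narrow, with a range of at most 0.145 within a group. The difference over EGFP was 0.63 with PKA-CQR (SE 0.08, 1.54-fold) and 2.09 with FSH (4.25-fold), and PKA-CQR over FSH it was -1.46 (SE 0.07, a ratio of 0.363). Of the 10 rises with PKA-CQR this was the smallest, and 460 genes had a larger one, while 80 exceeded its rise with FSH.

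*Nap1l5* (probe set 1375861_at) belongs to the nucleosome assembly proteins, which carry histones, and in the mouse it is imprinted and expressed from the paternal copy. Its signals were 10.19, 10.69 and 10.38 with PKA-CQR, 9.31, 9.37 and 9.47 with FSH, and 6.22 and 6.41 with EGFP. All PKA-CQR arrays lay above all FSH arrays, which was seen in no other of the 10 genes. PKA-CQR was 4.10 above EGFP (SE 0.14, 17.2-fold) and FSH 3.07 above EGFP (8.38-fold), and PKA-CQR over FSH the difference was 1.04 (SE 0.12, 2.05-fold). Only 9 genes had a larger rise with PKA-CQR, against 29 with FSH.

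*Nfe2* (probe set 1375040_at), the large subunit of a leucine zipper factor that pairs with small Maf proteins and is known from red cell and platelet precursors, had signals of 6.16, 6.37 and 6.66 with PKA-CQR, 7.92, 7.72 and 8.37 with FSH, and 4.37 and 4.49 with EGFP. The 3 groups were separate by more than 1 log2 unit. The difference over EGFP was 1.97 with PKA-CQR (SE 0.20, 3.91-fold) and 3.57 with FSH (11.9-fold), and PKA-CQR over FSH it was -1.61 (SE 0.17, a ratio of 0.328). No detection calls were used, so it is not known whether the EGFP signal was above the background of the probe set.

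The blood lineages in which *Nfe2* is known were checked by their markers. Of 8 erythroid markers measured (15 listed), 0 rose with PKA-CQR and 2 rose with FSH, namely *Klf1* (log2 difference 0.30, limma adjusted p = 0.0207) and *Alas2* (0.69, adjusted p = 0.00462). Over all genes, 6.48% rose with PKA-CQR and 13.4% with FSH. *Gata1*, the factor that defines the lineage, averaged 5.23 in PKA-CQR, 5.37 in FSH and 5.20 in EGFP arrays, with adjusted p = 0.940 and 0.464 against EGFP. The mean of the list on an array was 6.03 to 6.11 with PKA-CQR, 6.02 to 6.17 with FSH and 5.98 to 5.99 with EGFP. Of 5 megakaryocyte and platelet markers (9 listed) 0 were called with either stimulus, and their mean on an array was 5.99 to 6.23 with PKA-CQR, 6.07 to 6.19 with FSH and 5.89 to 6.05 with EGFP. The part of such cells in the *Nfe2* signal was not tested.

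*Parm1* (probe set 1370962_at), a mucin-like membrane protein first known from the prostate, gave 8.59, 8.89 and 8.79 with PKA-CQR, 9.38, 9.45 and 9.33 with FSH, and 6.77 and 6.81 with EGFP. The PKA-CQR arrays all lay below the FSH arrays. Over EGFP the difference was 1.96 with PKA-CQR (SE 0.10, 3.89-fold) and 2.59 with FSH (6.03-fold), and PKA-CQR over FSH it was -0.63 (SE 0.09). There were 60 genes with a larger rise with PKA-CQR and 49 with FSH.

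*Ttyh2* (probe set 1384238_at) encodes a membrane protein of the tweety family. Its signals were 7.55, 7.55 and 7.49 with PKA-CQR, 8.98, 8.78 and 9.29 with FSH, and 6.53 and 6.69 with EGFP. The PKA-CQR arrays were close together and the FSH arrays spread over 0.51, and the groups were separate. PKA-CQR was 0.92 above EGFP (SE 0.14, 1.89-fold) and FSH 2.40 above EGFP (5.29-fold), and the difference PKA-CQR over FSH was -1.49 (SE 0.12, a ratio of 0.357). *Ttyh2* and *Folr1* were the 2 genes of the 10 with less than a 2-fold rise with PKA-CQR.

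*Defb24* (probe set 1384805_at) belongs to the beta-defensins, small secreted peptides of innate defence, many of which are made in the epididymis. Its signals were 9.58, 10.10 and 9.92 with PKA-CQR, 11.10, 11.77 and 11.75 with FSH, and 7.34 and 8.24 with EGFP. The EGFP arrays differed by 0.90, the widest gap of the 10 genes, yet the 3 groups did not overlap. The difference over EGFP was 2.07 with PKA-CQR (SE 0.29, 4.21-fold) and 3.75 with FSH (13.5-fold), and PKA-CQR over FSH it was -1.68 (SE 0.26, a ratio of 0.313). The 3 other beta-defensins measured, *Defb1*, *Defb4* and *Defb22*, were called in none of the comparisons and stayed between 4.41 and 6.50 on all arrays.

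*Folr1*, *Parm1* and *Defb24* are also expressed by epithelia, whose markers were compared in the same way. Of 11 epithelial markers measured (14 listed), 1 rose with either stimulus, *Epcam*, by 0.34 with PKA-CQR (adjusted p = 0.0407) and 0.35 with FSH (adjusted p = 0.0196). *Cdh1*, which defines many epithelia, averaged 5.41 in PKA-CQR, 5.43 in FSH and 5.40 in EGFP arrays. The mean of the list on an array was 6.28 to 6.37 with PKA-CQR, 6.17 to 6.43 with FSH and 6.23 to 6.30 with EGFP. Among 11 markers of macrophages and leukocytes (12 listed), 0 were called with PKA-CQR and 4 rose and 1 fell with FSH, with means on an array of 6.36 to 6.59 with PKA-CQR, 6.63 to 6.77 with FSH and 6.37 to 6.47 with EGFP. *Cd74* (log2 difference 1.13, limma adjusted p = 0.0188) and *Cd68* (0.69, adjusted p = 0.00242) rose with FSH. So did *Fcer1g* (0.63, adjusted p = 0.0197) and *Tyrobp* (0.37, adjusted p = 0.0319), while *Cd14* fell (-0.88, adjusted p = 0.000109). For comparison, a higher signal under FSH was called for 13.4% of the 13914 genes tested. *Ptprc*, which all leukocytes carry, averaged 4.54 in PKA-CQR, 4.64 in FSH and 4.61 in EGFP arrays. Of 9 theca and stroma markers 1 rose and 1 fell with PKA-CQR and 1 rose and 3 fell with FSH, and of 7 endothelial and 5 oocyte markers 0 were called with PKA-CQR and 1 of each fell with FSH. The part of these cells in the signals of the 10 genes was not tested.

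*Fam110c* (probe set 1385251_at) encodes a protein of the centrosome and the microtubules that takes part in cell spreading. Its signals were 10.43, 11.27 and 11.05 with PKA-CQR, 11.17, 11.23 and 11.30 with FSH, and 5.80 and 6.12 with EGFP. The PKA-CQR and FSH arrays overlapped, and PKA-CQR replicate 1 was the lowest of the 6. Over EGFP the difference was 4.96 with PKA-CQR (SE 0.22, 31.1-fold) and 5.27 with FSH (38.6-fold), and PKA-CQR over FSH it was -0.31 (SE 0.19). Without PKA-CQR replicate 1 that last difference was -0.07, and without PKA-CQR replicate 2 it was -0.49. Only 1 gene on the array had a larger rise with FSH and 5 had a larger rise with PKA-CQR.

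The 10 genes thus differed in how the 2 stimuli compared. *Fam110c* and *Aadat* overlapped between the stimuli, *Inmt*, *Ass1* and *Parm1* had PKA-CQR over FSH ratios of 0.618 to 0.646, and *Folr1*, *Ttyh2*, *Nfe2* and *Defb24* had ratios of 0.313 to 0.363. In *Nap1l5* the order was turned. The median log2 difference PKA-CQR over FSH was -0.669 over the 10 genes and -0.0227 over all genes. Among the 114 other genes that rose with FSH by at least as much as *Aadat* (1.77), the median was -0.68, and in 78 of them (68.4%) all PKA-CQR arrays lay below the FSH arrays, against 7 of the 10 (70%). The 114 genes were picked on the FSH arrays, which by itself favours FSH over PKA-CQR. The rises with PKA-CQR and with FSH are both taken over the same 2 EGFP arrays.

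**Figure D2:**
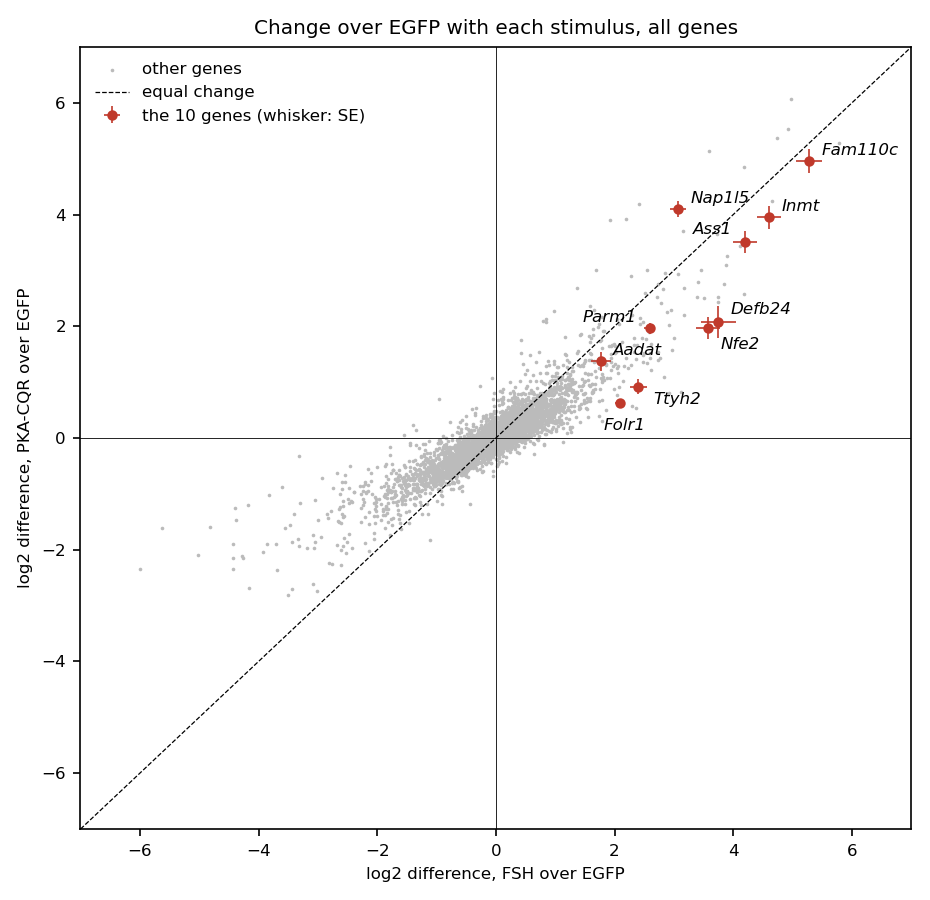
Log2 difference PKA-CQR over EGFP (vertical) against log2 difference FSH over EGFP (horizontal) for the 10 genes (red, whiskers are SE) and all other genes (grey), with a dashed line of equal change. *Nap1l5* lies above the line (4.10 and 3.07) and the other 9 lie below it, and both axes share the EGFP arrays.

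On the EGFP arrays, replicate 2 was higher than replicate 1 in 10 of the 10 genes, by a median of 0.18, while over all genes it was higher in 51.4% (median 0.0058) and over the 1858 other genes that rose with FSH in 59.8%. Among the 114 strong risers it was higher in 72.8%. With only 2 EGFP arrays, each rise above moves with the choice between them. The beta-actin difference between 3′ and 5′ probes, which grows as RNA degrades, was 1.45, 1.34 and 1.66 on the PKA-CQR arrays, 1.30, 1.45 and 1.88 on the FSH arrays and 1.02 and 1.53 on the EGFP arrays, and its part in the EGFP difference was not tested. PKA-CQR replicate 2 was above its group mean in 7 of the 10 genes (median deviation 0.17) and PKA-CQR replicate 1 below it in 6 (median -0.17).

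The genes whose pattern was most like each of the 10 were taken as those with the smallest root mean square difference over the 8 arrays, after each gene's EGFP mean was subtracted. Nearest to *Fam110c* were *Tnfaip6* (0.439), which builds the hyaluronan matrix of the ovulating follicle, *Cyp11a1* (0.457), the enzyme that makes pregnenolone from cholesterol, and *Scarb1* (0.604), the HDL receptor. *Scarb1* was also nearest to *Inmt* (0.290), followed by *Osgin1* (0.581). *Ptgds*, a prostaglandin D synthase, was the closest to *Ass1* (0.380) and the third for *Inmt* (0.583) and *Nap1l5* (0.497), and *Osgin1* (0.410) and the stress gene *Ddit4* (0.414) came next for *Ass1*. *Nap1l5* lay closer to *Sult1b1* (0.448), a sulfotransferase, and to *Ereg* (0.465), an EGF-like factor of ovulation.

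*Kcnq1*, a potassium channel subunit, was the closest gene to *Nfe2* (0.388) and the third for *Defb24* (0.393), *Tmem86a* was close to both (0.392 for *Nfe2* and 0.361 for *Defb24*), *Rbm47* (0.322), an RNA-binding protein, was the closest to *Defb24*, and the sulfotransferase *Chst1* (0.392) stood next to *Nfe2*. *Folr1* was nearest to *S100b* (0.219), *Tmem150c* (0.225) and the protease inhibitor *A2m* (0.241), and *Ttyh2* to the phospholipase *Pla2g1b* (0.192), *Fam195a* (0.280) and the metallothionein *Mt2A* (0.286). *Parm1* had *Slc25a30* (0.129), a mitochondrial carrier, *Tmem178a* (0.18) and *Gfpt2* (0.191), and *Aadat* had *Net1* (0.111), an activator of the GTPase RhoA, *Plxnc1* (0.156) and *Wwp2* (0.157). The distances rank the genes near 1 gene and do not compare the 10 genes with each other.

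The 10 genes were then set beside the genes they work or are grouped with, 138 in 9 lists, of which 117 were measured. These genes were listed by pathway or family, but not independently of these arrays. Each was tested with limma over 13914 genes and called at an adjusted p under 0.05. With PKA-CQR 15 rose and 10 fell, or 12.8% and 8.55%, against 6.48% and 6.02% of all genes. With FSH 23 rose and 22 fell, or 19.7% and 18.8%, against 13.4% and 12.1% of all genes. PKA-CQR over FSH, 7 were higher and 7 lower, or 5.98% each, against 3.95% and 2.96%. The median log2 difference was 0.06 with PKA-CQR and 0.0798 with FSH, where over all genes it was 0.0261 and 0.057. The lists were drawn up with results of these arrays known, so their shares cannot be read as those of an unselected set. The largest rise in them was that of *Kcnq1*, 4.58-fold with PKA-CQR and 8.98-fold with FSH, followed by that of *Aldh1l1*, 2.06-fold with FSH. Without EGFP replicate 1 the count of 25 genes called with PKA-CQR was 8, and without FSH replicate 2 the count of 14 between the stimuli was 4.

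**Figure D3:**
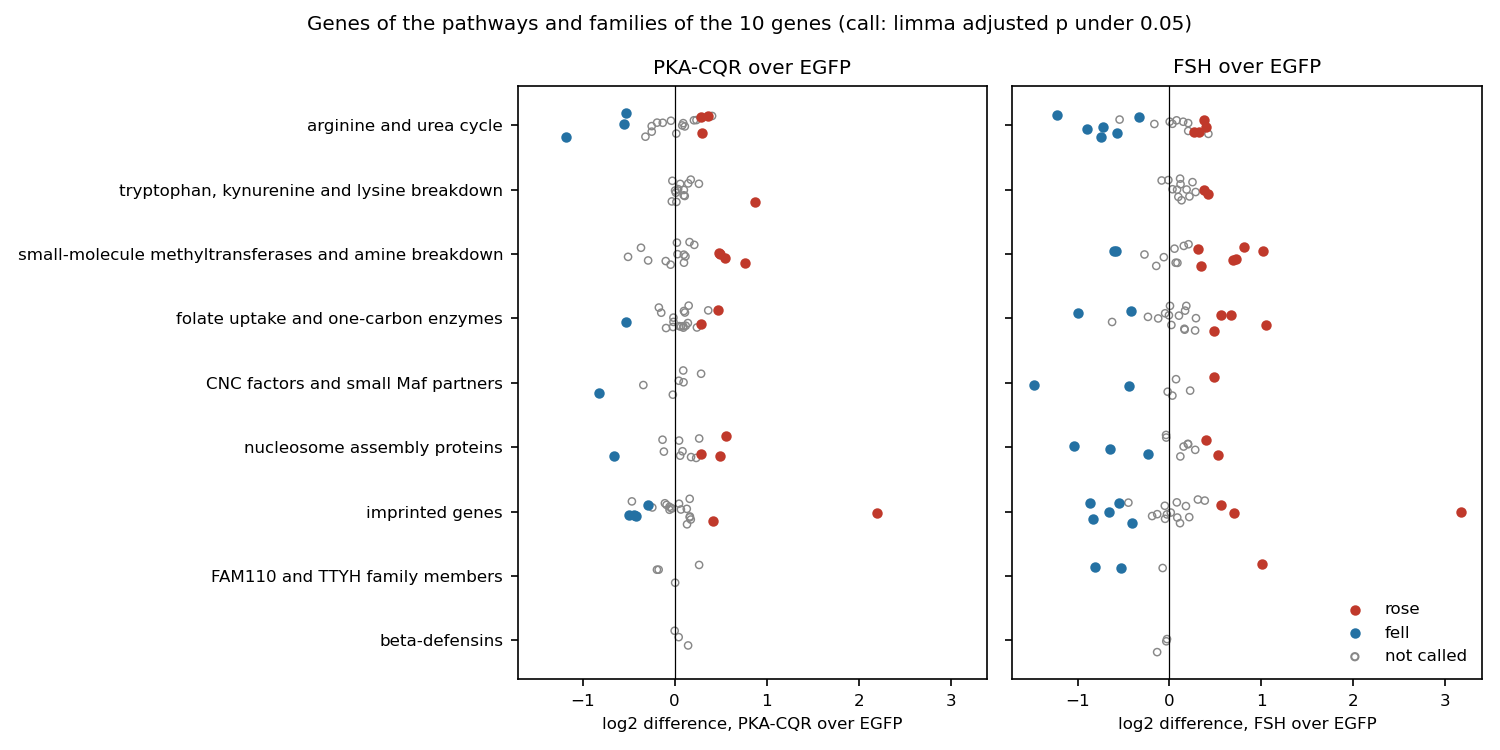
Log2 difference over EGFP (horizontal) with PKA-CQR (left) and FSH (right) of the 117 related genes, 1 row per list, filled red where a gene rose, filled blue where it fell (limma adjusted p under 0.05) and open where it was not called. Most points lie within 1 log2 unit of 0, and the point farthest right in both panels is *Kcnq1*.

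Around *Ass1*, 19 genes of arginine metabolism and the urea cycle were measured, of which 3 rose and 3 fell with PKA-CQR and 4 rose and 6 fell with FSH. *Arg1*, the arginase that splits arginine to urea and ornithine, had signals of 5.71, 5.89 and 5.83 with PKA-CQR, 5.92, 6.18 and 6.17 with FSH, and 7.20 and 6.77 with EGFP, and fell with PKA-CQR (log2 difference -1.18, SE 0.14, adjusted p = 0.000935) and with FSH (-0.90, adjusted p = 0.00151). *Ddah1*, which clears the methylated arginines that inhibit nitric oxide synthase, fell by 0.52 with PKA-CQR (adjusted p = 0.00986, and 0.0838 without EGFP replicate 1) and by 1.22 with FSH (adjusted p = 4.73e-05), and it was 0.69 higher with PKA-CQR than with FSH (adjusted p = 0.00267). The ornithine decarboxylase *Odc1*, which opens polyamine synthesis, rose by 0.36 with PKA-CQR (adjusted p = 0.00874, and 0.0549 without EGFP replicate 1) and by 0.32 with FSH (adjusted p = 0.00829). The ornithine carrier *Slc25a15* rose by 0.38 with FSH (adjusted p = 0.00846, and 0.0553 without EGFP replicate 1). *Asl*, the lyase that follows *Ass1* in the pathway, had differences of 0.08 with PKA-CQR (SE 0.16, adjusted p = 0.834) and 0.20 with FSH (adjusted p = 0.417).

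The breakdown of tryptophan and lysine, in which *Aadat* acts, had 14 genes measured, with 1 called with PKA-CQR and 2 with FSH, all of them higher. *Aass*, the first enzyme of lysine breakdown upstream of *Aadat*, had signals of 9.98, 9.78 and 10.05 with PKA-CQR, 9.25, 9.15 and 9.17 with FSH, and 9.44 and 8.70 with EGFP. It rose by 0.87 with PKA-CQR (SE 0.19, adjusted p = 0.0174), a call lost without PKA-CQR replicate 1 or 3 (adjusted p = 0.0585 and 0.0587), and the EGFP arrays were far apart. *Afmid*, the formamidase that yields kynurenine, rose by 0.42 with FSH (adjusted p = 0.0105, and 0.0656 without EGFP replicate 2). *Tdo2*, *Kmo* and *Kynu*, the oxygenases and the hydrolase around kynurenine, were not called and stayed at 4.24 to 5.54 on all arrays.

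Among 16 small-molecule methyltransferases and amine-degrading enzymes, the relatives of *Inmt*, 4 rose and 0 fell with PKA-CQR and 6 rose and 2 fell with FSH. *Pemt*, which methylates phosphatidylethanolamine, rose by 0.77 with PKA-CQR (SE 0.11, adjusted p = 0.00248) and by 0.81 with FSH (adjusted p = 0.000773). *Gamt*, which makes creatine, had signals of 10.90, 11.01 and 11.06 with PKA-CQR, 11.32, 11.56 and 11.50 with FSH, and 10.33 and 10.56 with EGFP. It rose by 0.54 with PKA-CQR (adjusted p = 0.00986, and 0.0911 without EGFP replicate 1) and by 1.01 with FSH (adjusted p = 0.000162). *Maoa*, a monoamine oxidase, had a difference of -0.37 with PKA-CQR (adjusted p = 0.0615) and fell by 0.58 with FSH (adjusted p = 0.00419).

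Of 20 genes of folate uptake and one-carbon metabolism, the setting of *Folr1*, 2 rose and 1 fell with PKA-CQR and 4 rose and 2 fell with FSH. *Aldh1l1*, which oxidises formyl-tetrahydrofolate, had signals of 7.78, 7.77 and 7.67 with PKA-CQR, 8.46, 8.49 and 8.56 with FSH, and 7.41 and 7.51 with EGFP. It rose by 1.04 with FSH (SE 0.08, adjusted p = 2.56e-05) and was 0.76 lower with PKA-CQR than with FSH (log2 difference -0.76, adjusted p = 0.000571). Its difference of 0.28 with PKA-CQR was called (adjusted p = 0.0448) but lost without any 1 array other than FSH replicate 3 (adjusted p = 0.0564 to 0.261) and with a block for the replicate number (adjusted p = 0.0661). *Shmt1*, a serine hydroxymethyltransferase, rose by 0.67 with FSH (adjusted p = 0.00268). *Ggh*, which trims the glutamate tail of folates, fell by 0.52 with PKA-CQR (adjusted p = 0.0111, and 0.0754 without EGFP replicate 2) and by 0.99 with FSH (adjusted p = 0.000171). The folate carriers *Slc19a1* and *Slc46a1* were not called, with differences of 0.12 to 0.17 over EGFP.

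*Nfe2* has 7 measured relatives among the CNC factors and small Maf proteins, of which 0 rose and 1 fell with PKA-CQR and 1 rose and 2 fell with FSH. *Maff*, a small Maf partner, had signals of 7.54, 8.01 and 7.81 with PKA-CQR, 7.01, 7.24 and 7.15 with FSH, and 8.88 and 8.34 with EGFP. It fell by 0.82 with PKA-CQR (adjusted p = 0.0179, and 0.136 without EGFP replicate 1 and 0.0548 without PKA-CQR replicate 1) and by 1.48 with FSH (adjusted p = 0.000407). *Nfe2l2*, the factor of the oxidative stress response, had a difference of 0.29 with PKA-CQR (SE 0.08, adjusted p = 0.0512) and rose by 0.48 with FSH (adjusted p = 0.00261). *Mafg*, another partner, had differences of 0.04 with PKA-CQR and 0.22 with FSH and was not called.

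For *Nap1l5*, 12 nucleosome assembly genes and 22 imprinted genes were measured. Of the nucleosome assembly genes, 3 rose and 1 fell with PKA-CQR and 2 rose and 3 fell with FSH. *Nap1l3*, a relative of *Nap1l5*, had signals of 9.10, 9.06 and 9.23 with PKA-CQR, 8.75, 8.74 and 8.77 with FSH, and 9.82 and 9.75 with EGFP. It fell by 0.65 with PKA-CQR (SE 0.08, adjusted p = 0.000885) and by 1.03 with FSH (adjusted p = 2.54e-05), where *Nap1l5* lay above EGFP with both. *Asf1b*, a histone chaperone of dividing cells, rose by 0.56 with PKA-CQR (adjusted p = 0.00131) and by 0.53 with FSH (adjusted p = 0.000714).

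Of the imprinted genes, 2 rose and 4 fell with PKA-CQR and 3 rose and 5 fell with FSH. *Kcnq1* had signals of 8.75, 9.22 and 9.13 with PKA-CQR, 9.88, 10.13 and 10.01 with FSH, and 6.48 and 7.20 with EGFP, and rose by 2.20 with PKA-CQR (SE 0.21, adjusted p = 0.000381) and by 3.17 with FSH (adjusted p = 1.64e-05). *Nnat*, the membrane protein neuronatin, fell by 0.87 with FSH (adjusted p = 0.000394), and *Mcts2*, like *Nap1l5* a small gene inside a larger one in the mouse, rose by 0.70 with FSH (adjusted p = 0.00246). *Grb10*, an adaptor of the insulin receptor, fell by 0.83 with FSH (adjusted p = 0.0275, and 0.183 without EGFP replicate 2).

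*Fam110c* and *Ttyh2* have 4 family members on the array, with 0 called with PKA-CQR and 1 that rose and 2 that fell with FSH. *Fam110b* had signals of 9.18, 9.45 and 9.23 with PKA-CQR, 9.89, 10.31 and 9.86 with FSH, and 9.01 and 9.02 with EGFP, and rose 2.00-fold with FSH (log2 difference 1.00, SE 0.14, adjusted p = 0.00109). *Fam110a* had a difference of -0.17 with PKA-CQR (adjusted p = 0.365), fell by 0.81 with FSH (adjusted p = 0.000541), and was 0.64 higher with PKA-CQR than with FSH (adjusted p = 0.00448). *Ttyh1* fell by 0.53 with FSH (adjusted p = 0.00744, and 0.0669 without EGFP replicate 1), and *Ttyh3* was not called, with differences of 0.01 with PKA-CQR and -0.07 with FSH. Under FSH the 2 measured relatives of *Fam110c* thus moved in opposite directions.

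Genes next to the 10 on the chromosome (RefSeq, assembly GRCr8) were compared last. Of 21 such neighbours on the array, 2 rose and 1 fell with PKA-CQR, 5 rose and 1 fell with FSH, and between the stimuli 0 had a higher and 2 a lower signal with PKA-CQR. Of all genes, 6.48% rose and 6.02% fell with PKA-CQR, 13.4% rose and 12.1% fell with FSH, and 3.95% were higher and 2.96% lower between the stimuli, and whether the neighbours differ from this background was not tested. *Herc3*, a ubiquitin ligase whose gene overlaps *Nap1l5*, had signals of 9.43, 9.46 and 9.63 with PKA-CQR, 9.97, 10.06 and 10.16 with FSH, and 8.90 and 9.24 with EGFP. The PKA-CQR arrays all lay below the FSH arrays, the reverse of *Nap1l5*. *Herc3* rose by 0.99 with FSH (SE 0.12, adjusted p = 0.000334). Its rise of 0.44 with PKA-CQR (adjusted p = 0.0410) was lost without any 1 array other than EGFP replicate 2 or FSH replicate 3 (adjusted p = 0.0508 to 0.287). The difference PKA-CQR over FSH was -0.55 (adjusted p = 0.0155), a call lost without FSH replicate 2 or PKA-CQR replicate 1 or 2 (adjusted p = 0.0575 to 0.0759).

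*Abcg2*, a drug efflux transporter on one side of *Nap1l5*, rose by 0.57 with PKA-CQR (SE 0.12, adjusted p = 0.0160, lost without EGFP replicate 1 or PKA-CQR replicate 3 with adjusted p of 0.0562 to 0.130) and by 0.48 with FSH (adjusted p = 0.0184, and 0.131 without EGFP replicate 1). *Fam13a*, on the other side, had differences of 0.02 with PKA-CQR and 0.17 with FSH and was not called. *Sh3yl1*, next to *Fam110c*, fell by 0.42 with PKA-CQR (adjusted p = 0.00952, and 0.0644 without EGFP replicate 2) and by 0.29 with FSH (adjusted p = 0.0270, lost without FSH replicate 2 or either EGFP array with adjusted p of 0.0644 to 0.146), although *Fam110c* lay far above EGFP with both. *Rchy1*, next to *Parm1*, rose by 0.44 with FSH (SE 0.06, adjusted p = 0.00125) and had a lower signal under PKA-CQR than under FSH (-0.33, adjusted p = 0.0111, lost without FSH replicate 2 or PKA-CQR replicate 1 with adjusted p of 0.0539 and 0.0561). *Folr2*, a second folate receptor beside *Folr1*, had differences of 0.07 with PKA-CQR (SE 0.08, adjusted p = 0.713) and 0.10 with FSH (adjusted p = 0.431), and *Defb22*, beside *Defb24*, had differences of 0.00 and -0.03. Of the remaining 14, *Galnt7* by *Aadat* rose by 1.07 with FSH (adjusted p = 0.0173, lost without EGFP replicate 2 or FSH replicate 2 with adjusted p of 0.0508 to 0.130) and *Copz1* by *Nfe2* by 0.39 (adjusted p = 0.0104, and 0.0759 without EGFP replicate 1), and the others were not called.

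**Figure D4:**
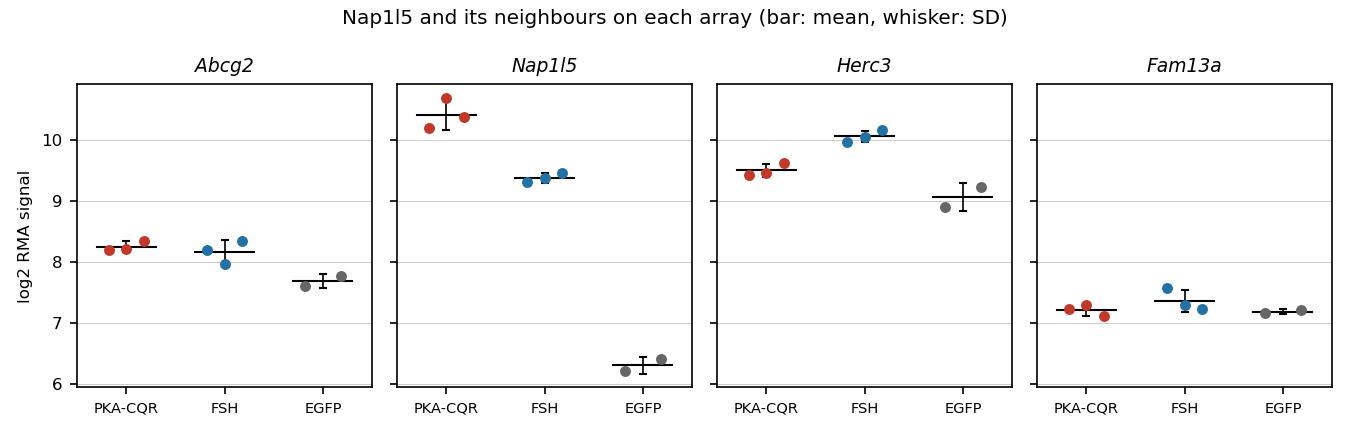
Log2 RMA signal (vertical axis) of *Nap1l5* and its neighbours *Abcg2*, *Herc3* and *Fam13a* on each PKA-CQR (red), FSH (blue) and EGFP (grey) array, with mean (bar) and SD (whisker, n = 3, 3 and 2). *Nap1l5* is highest with PKA-CQR (10.19 to 10.69) and *Herc3* is highest with FSH (9.97 to 10.16).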

How the data were processed

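Total RNA of 8 GC cultures was read on Affymetrix rat arrays (230 2.0), each of which reads a transcript mostly near its 3′ end. The authors deposited log2 values from RMA (background correction, quantile normalization across arrays, summary of probe sets), so arrays share one distribution. The RMA version and chip definition are not given in the sources used here. MAS5.0 values, which the methods describe together with a t test by Student, were not analysed here. Of 31099 probe sets, 57 are controls and 17128 have no symbol. The 13914 others, 1 per gene, were tested, and the second deposited table differed from the first in 0 of 111320 values. Each gene thus rests on the 1 probe set that carries its symbol in the deposited values. Other probe sets of the same gene may be among those without a symbol, and they were not compared.

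Differences were fitted in R 4.3.3 with limma 3.58.1 (lmFit and eBayes over all 8 arrays), with Benjamini-Hochberg adjustment over 13914 genes and calls under 0.05. The p-values measure the spread between these arrays, and their number limits the precision. Tests were checked on simulated data with independent noise on each array, unlike the correlated deviations described below. Of 100 genes changed 2-fold, 90% to 93% were recovered, and of 100 changed 1.5-fold, 60% to 72%. A related gene or neighbour that was not called may therefore still have changed by 1.5-fold. The 10 genes, the lists and the tests were chosen with earlier results of these data known. Named genes are the 10, the neighbours, the 3 genes of most similar pattern to each, and in each list the up to 2 called genes with the largest rise and fall per comparison. *Asl*, *Tdo2*, *Kmo*, *Kynu*, *Slc19a1*, *Slc46a1*, *Mafg*, *Ttyh3*, *Prkaca*, the defensins and the cell type markers lie outside this rule and were named after their values were seen. Some genes that the rule covers are given as counts.

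The numbers in the labels were checked as pairs by correlating the deviations of arrays from their group means. FSH and PKA-CQR replicates 1, 2 and 3 correlated at 0.235, 0.435 and 0.619, and the methods describe 3 separate groups of GCs. EGFP replicate 1 correlated at 0.42 with FSH and 0.131 with PKA-CQR replicate 1. EGFP replicate 2 correlated at -0.271 and -0.316 with its namesakes, but at 0.522 with FSH replicate 3 and 0.41 with PKA-CQR replicate 3. The deviations of the 2 EGFP arrays mirror each other, so they are not separate checks. The paper takes its controls from groups 1 and 2, which would pair EGFP replicate 2 with the other replicates 2. The correlations instead place it nearer the replicates 3. In the order of the array names, too, it comes after FSH and PKA-CQR replicate 2 and just before FSH replicate 3. The EGFP arrays are therefore not clearly paired by their numbers. Alternatives were 2 other scalings, a filter on dim probe sets, adjustment over unnamed probe sets too, 2 other variance models, linear means, the replicate block, the methods' t-test and each array left out.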

Additional observations from a re-analysis of the deposited data

How the results depend on the processing

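The differences of the 10 genes kept their sign in 360 of 360 values under the alternatives. As the genes were chosen for large rises, the signs over EGFP follow from the choice. By more than 1 SD (pooled over the 2 groups, all arrays included) 0 moved. Leaving out 1 array cannot move a difference that far, so this count says nothing of single arrays. With each array left out, their median log2 difference was 1.925 to 2.275 with PKA-CQR over EGFP (2.02 with all arrays), 3.134 to 3.399 with FSH over EGFP (3.32) and -0.7999 to -0.5991 PKA-CQR over FSH (-0.669). The *Defb24* difference with PKA-CQR ranged from 1.625 without EGFP replicate 1 to 2.524 without EGFP replicate 2. The *Fam110c* difference PKA-CQR over FSH was -0.4878 to -0.06945 (-0.31 with all arrays). Of 95 calls of single related genes and neighbours, 37 were lost by no array left out. Related genes called numbered 8 to 27 with PKA-CQR (25 with all arrays, 8 without EGFP replicate 1), 32 to 43 with FSH (45) and 4 to 12 between the stimuli (14, and 4 without FSH replicate 2). Neighbours called numbered 1 to 3 with PKA-CQR, 3 to 6 with FSH and 0 to 2 between the stimuli (3, 6 and 2 with all arrays). The methods' t-test after Benjamini-Hochberg called 0, 9 and 1 related genes and 0, 1 and 1 neighbours in these comparisons. At its own threshold of 0.001 it called 2, 6 and 1 related genes. Limma had 34, 57 and 27 at an unadjusted p under 0.05, a looser threshold, so these last counts do not compare the 2 tests. With the replicate number as a block, 29, 49 and 17 related genes were called, and 91 of the 95 calls were kept. This block puts EGFP replicate 2 with FSH and PKA-CQR replicate 2, where its deviations correlated at -0.271 and -0.316. It may therefore place 1 of the 2 EGFP arrays wrongly, so the 91 calls kept do not show how the calls fare under the true pairing. The main fit has no block, and its p-values leave out any pairing of the cultures. A block with EGFP replicate 2 beside the replicates 3 was not run. The filter on a mean log2 signal of 6 kept 92 related genes and 17 neighbours in the test. The number of EGFP arrays and the lack of detection calls limit what can be said of dim genes such as *Nfe2* in EGFP GCs.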
